A study of Mus musculus with 4 samples.

Results

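Meioc, which encodes a partner protein of an RNA helicase in early meiotic germ cells, was measured together with 9 genes that write, erase or read the m6A mark of RNA. The genes were chosen by symbol from the table of counts per gene, in which they make up 10 of 55421 entries, with 1 entry each. They are the writers Mettl3, Mettl14 and Wtap, the eraser Alkbh5, and the readers Ythdc1, Ythdc2, Ythdf1, Ythdf2 and Ythdf3. RNA-seq of oligo-dT captured RNA was done on primary cultures of spermatogonia from neonatal CD1 mice. The Veh cultures stayed in complete spermatogonial medium with bFGF and GDNF, and the NRRA cultures received a nutrient restriction medium, mostly balanced salt solution, plus retinoic acid (RA). There were 2 libraries of each kind, all from CD1 cultures grown on irradiated mouse embryonic fibroblast (MEF) feeder cells of CF1 mice. The study used the comparison to ask whether the response to NRRA occurs outside its F1 hybrid background.

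The m6A mark is a methyl group on adenosine and the most common internal modification of messenger RNA. METTL3 is the catalytic subunit of the writer complex, METTL14 supports RNA binding, and WTAP anchors the complex in the nucleus, while ALKBH5 removes the mark. YTHDC1 reads it in the nucleus, and the YTHDF proteins read it in the cytoplasm, where they affect decay and translation of the transcript. YTHDC2 combines a YTH domain with a helicase, and acts with MEIOC in germ cells that leave the mitotic cycle. Mouse germ cells that lack either protein enter meiosis but return too early to a metaphase-like state.

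Total counts per library lay between 28022265 and 31604769, and the members had between 946 and 11583 counts in each library, so none was near the floor of 3 counts. Log2 CPM of the 2 libraries of a group correlated with an r of 0.993 in Veh and 0.994 in NRRA across the tested genes, which are not independent replicates. The study describes its sequencing replicates as independent biological ones, but the labels do not name the culture or the animals behind each library. The level of Stra8, a direct RA target, fitted the titles, with 9.62 and 10.1 CPM (counts relative to library size after TMM scaling) in the Veh libraries and 1864 and 1853 CPM in the NRRA libraries. Of 9 germ cell markers 2 rose and 6 fell, beside 27.9% and 28.4% of all tested genes. Ddx4, a germ cell RNA helicase, stood at 273 and 268 CPM in Veh and at 271 and 278 CPM in NRRA. Zbtb16, a marker of undifferentiated spermatogonia, stood at 441 and 443 CPM in Veh and fell to 82.1 and 81.4 CPM in NRRA. The markers that rose were Sall4, a transcription factor of spermatogonia, from 184 and 178 CPM to 319 and 328 CPM, and Dazl, an RNA-binding protein gene, at 1.11-fold. The 13 fibroblast feeder markers summed to 9661 and 9581 CPM in Veh and to 7429 and 7240 CPM in NRRA, and 10 of them fell while 2, Pdgfra and Col3a1, rose. Most of the lower sum came from Fn1 and Thbs1, and the other 11 summed to 2555 and 2532 CPM in Veh and to 2520 and 2387 CPM in NRRA. In bulk RNA, fewer cells of a type and less RNA per cell cannot be told apart. The m6A machinery is used by most cell types, fibroblasts included, and the part of the feeder cells in the results below was not tested.

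Of the 10 genes, 5 rose in NRRA, 2 fell, and 3 did not pass the threshold (a p under 0.05 in the edgeR quasi-likelihood test, adjusted by Benjamini-Hochberg over all 20232 genes tested). All 10 passed the filter on low counts. Across all tested genes 27.9% were called higher and 28.4% lower, together 56.4%, so that calls on 7 of 10 genes lie close to what the table as a whole gives. In 9 of the 10 genes the groups did not overlap, against 76.7% of all tested genes. Both NRRA libraries lay above both Veh libraries for 7 of them and below for 2, beside 38.1% and 38.6% of all tested genes. With libraries scaled by total counts only, 60.3% of all calls were higher, in place of 49.6%, and the median of all tested genes moved to 0.09. Of the 10 genes, 7 were then called higher and 1 lower. With TMM scaling, the median log2 fold change of the 10 was 0.19, beside 0.00029 over all tested genes. The rises ranged from 1.19-fold for Wtap to 1.76-fold for Meioc, while both falls were under 1.2-fold. The calls rest on a small spread between libraries, since the common biological coefficient of variation was 2.61%.

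**Figure D1:**
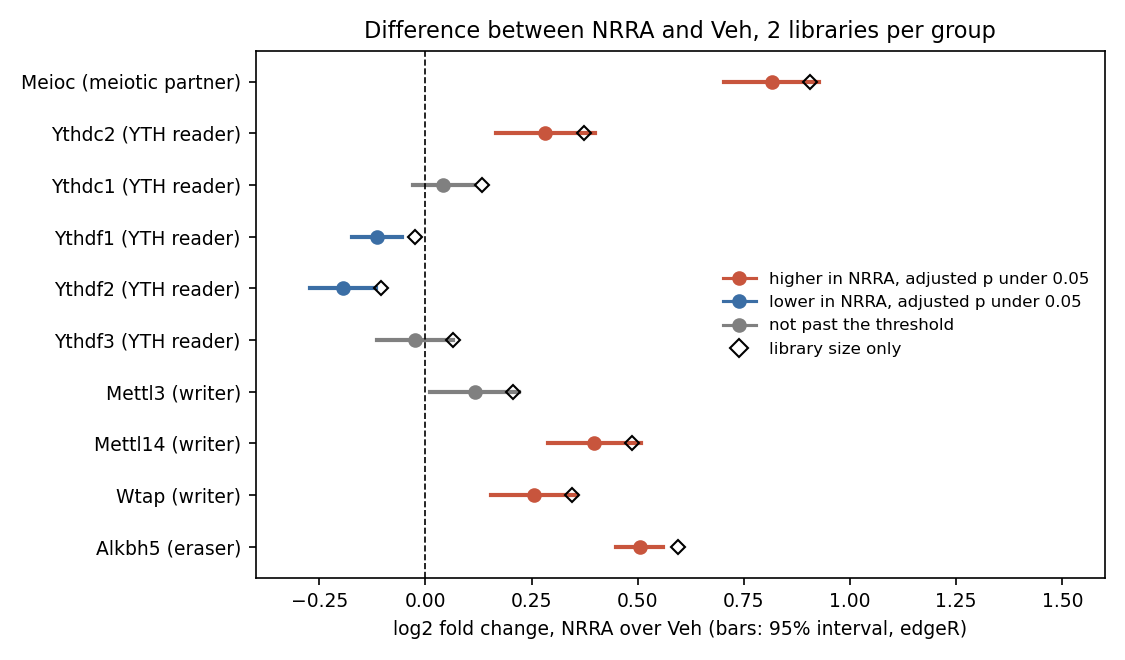
Log2 fold change of NRRA over Veh (horizontal axis) for each of the 10 genes, with 95% intervals from the edgeR fit as bars and, as open diamonds, the value when libraries are scaled by total counts only. Meioc lies farthest to the right at 0.82, Ythdf2 farthest to the left at -0.19, and the diamonds are all shifted to the right.

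Meioc showed the largest difference of the group. It lies on chromosome 11 (ENSMUSG00000051455, GRCm38, 102663716 to 102682237, plus strand), and its exons overlap no other annotated exon. Its level was 34.9 and 34.5 CPM in the Veh libraries and 62.7 and 59.4 CPM in the NRRA libraries. Both NRRA libraries lay far above both Veh libraries, and the gap was many times the difference within either group. The log2 fold change was 0.82 (adjusted p 9.41e-13 by edgeR, SE 0.054), a 1.76-fold rise, which was larger in size than the changes of 80.9% of all tested genes. Leaving out each library in turn gave values between 0.78 and 0.85.

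Promoter sequences are shown for Meioc and Alkbh5, which rose most among the genes with a promoter window, and for Ythdf1, which fell. These are the windows that held a match to a sequence motif of factors known in meiotic entry. The window of Ythdf2, which fell more than Ythdf1, held none. Windows of 300 bases, from 250 before to 50 after the RefSeq start (RefSeq, GRCm38.p6), were matched by symbol for 7 of the 10 genes. They were searched on both strands for the STRA8 motif CNCCTCAG, the E-box CACGTG, the E2F motif TTTCCCGC, and the RA response element made of AGGTCA repeated in the same direction with 5 bases between. Capitals mark the matches, and each sequence is written in the direction of transcription.
Meioc, chr11:102665335-102665634, plus strand: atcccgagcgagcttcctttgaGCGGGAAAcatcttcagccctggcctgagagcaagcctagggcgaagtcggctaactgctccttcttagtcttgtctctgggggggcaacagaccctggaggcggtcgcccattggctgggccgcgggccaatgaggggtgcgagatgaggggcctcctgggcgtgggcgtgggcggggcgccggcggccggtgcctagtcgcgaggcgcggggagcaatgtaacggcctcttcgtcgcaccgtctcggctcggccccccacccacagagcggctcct
Alkbh5, chr11:60537433-60537732, plus strand: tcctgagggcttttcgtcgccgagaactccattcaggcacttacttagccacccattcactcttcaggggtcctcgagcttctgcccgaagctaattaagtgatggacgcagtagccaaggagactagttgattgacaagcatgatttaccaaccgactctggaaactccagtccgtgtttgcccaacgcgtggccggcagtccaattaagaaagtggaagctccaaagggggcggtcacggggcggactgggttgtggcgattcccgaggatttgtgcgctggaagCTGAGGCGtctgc
Ythdf1, chr2:180920887-180921186, minus strand: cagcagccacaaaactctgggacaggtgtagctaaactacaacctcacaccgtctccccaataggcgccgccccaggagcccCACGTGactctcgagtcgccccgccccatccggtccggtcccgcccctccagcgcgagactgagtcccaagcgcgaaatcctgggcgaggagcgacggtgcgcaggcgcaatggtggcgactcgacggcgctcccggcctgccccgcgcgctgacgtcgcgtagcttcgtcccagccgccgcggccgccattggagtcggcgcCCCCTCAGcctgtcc
The Meioc window held 1 match to the E2F motif, on the strand opposite to transcription, and none of the other motifs. This motif was present in 1.07% of all 32851 promoter windows. The STRA8 motif stood just after the start in both Alkbh5, which rose, and Ythdf1, which fell, and in 7.94% of all windows. The fall of Ythdf1 was not past the threshold with library size only. Only Ythdf1 among the 7 genes held the E-box, which occurred in 7.15% of all windows. None of the 7 held the RA response element, which occurred in 0.00913% of windows. The windows of Ythdc1, Ythdf2, Mettl3 and Wtap held no match to any of the motifs. For Meioc, Alkbh5 and Wtap the gene model of GENCODE begins upstream of the RefSeq windows, so that other starts were not covered. GC content was 68.3% for Meioc, 55.3% for Alkbh5 and 70% for Ythdf1, beside a median of 52.7% over all windows. A match is a description of the letters and not of binding.

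Ythdc2, the helicase partner of MEIOC, rose less. It lies on chromosome 18 (ENSMUSG00000034653, 44827746 to 44889724, plus strand) and shares no exonic base with another gene. Its level was 37.5 and 35.8 CPM in Veh and 44.0 and 45.1 CPM in NRRA, with both NRRA libraries above both Veh libraries. The log2 fold change was 0.28 (adjusted p 0.000127 by edgeR, SE 0.057), a 1.22-fold rise. The change was smaller in size than those of more than 50% of the tested genes, since only 44.7% of genes moved less. It was not past a test against a change of 1.2-fold (edgeR glmTreat adjusted p 0.34), whereas Meioc was.

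Transcripts of 5 genes of meiotic entry, among them 2 partners and 1 target of this pair, were read beside it. Rbm46, which encodes an RNA-binding protein that works with MEIOC and YTHDC2 in meiotic entry, rose from 42.3 and 47.4 CPM in Veh to 103 and 97.8 CPM in NRRA, a log2 fold change of 1.16 (adjusted p 1.36e-16 by edgeR, SE 0.050). Xrn1, an exonuclease that binds YTHDC2, had a log2 fold change of 0.43 (SE 0.038). Ccna2, a mitotic cyclin whose transcript is lowered by the MEIOC and YTHDC2 pair in vivo, was at 152 and 151 CPM in Veh and at 170 and 173 CPM in NRRA, a log2 fold change of 0.18 (adjusted p 2.37e-05 by edgeR, SE 0.032). Gm4969, which encodes MEIOSIN, the cofactor of STRA8, rose by 2.25 on the log2 scale. All 5 genes of this list, Stra8 included, were called higher, beside 27.9% of all tested genes, and the median was 1.16. The list was assembled around meiotic entry with earlier results of these data known, so its direction is not independent evidence.

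Of the 3 writers, 2 rose and 1 did not pass the threshold, beside 27.9% higher among all tested genes and 56.4% called. Mettl14 rose from 40.0 and 40.8 CPM in Veh to 54.0 and 52.5 CPM in NRRA, a log2 fold change of 0.40 (adjusted p 4.07e-07 by edgeR, SE 0.053). It lies on chromosome 3 (ENSMUSG00000028114, 123368297 to 123386108, minus strand). Wtap was at 61.6 and 58.0 CPM in Veh and at 73.8 and 68.7 CPM in NRRA, and rose by 0.26 on the log2 scale (adjusted p 7.17e-05 by edgeR, SE 0.049). For both genes the 2 groups did not overlap. Wtap lies on chromosome 17 (ENSMUSG00000060475, 12966796 to 12994169, minus strand), and 14.3% of its longest transcript is nearly identical to other genes, mainly the pseudogene Gm14292, which itself had between 143 and 206 counts in a library.

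Mettl3, the catalytic subunit, stood at 48.7 and 50.3 CPM in Veh and at 52.9 and 54.5 CPM in NRRA. Both NRRA libraries lay above both Veh libraries, but the groups were separated by little more than the spread within them. The log2 fold change was 0.12 (SE 0.051) and did not pass the threshold (edgeR adjusted p 0.0555). Its unadjusted 95% interval ran from 0.77% to 16.6% higher. The call depended on the setting. It was gained with the replicate number as a block (adjusted p 0.0478), with upper-quartile scaling (0.0258) and with library size only (0.00113), all in edgeR. DESeq2 did not give the call (adjusted p 0.189). Leaving out each library in turn gave log2 fold changes between 0.093 and 0.14. Mettl3 lies on chromosome 14 (ENSMUSG00000022160, 52294841 to 52305128, minus strand), and 18.4% of its exonic bases overlap Tox4, which is read from the other strand. Of its longest transcript, 31.6% matches Tox4. The sources do not state whether counting used the strand, which leaves the value of Mettl3 uncertain. Tox4 had between 3233 and 4310 counts in a library.

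Alkbh5, the eraser, rose by 0.51 on the log2 scale (adjusted p 1.15e-14 by edgeR, SE 0.027). The libraries stood at 253 and 247 CPM in Veh and at 356 and 354 CPM in NRRA, a 1.42-fold rise with close agreement within each group. It lies on chromosome 11 (ENSMUSG00000042650, 60536381 to 60558512, plus strand). The change exceeded that of 65.7% of all tested genes. Fto, the other m6A demethylase, was at 106 and 103 CPM in Veh and at 104 and 106 CPM in NRRA, with overlapping groups and a log2 fold change of 0.0092 (adjusted p 0.857 by edgeR, SE 0.037). Its value was 0.099 and past the threshold with library size only. The difference between the changes of Alkbh5 and Fto was not tested.

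Among the YTHDF readers, Ythdf1 and Ythdf2 fell and Ythdf3 did not pass the threshold, beside 28.4% lower among all tested genes. With library size only, Ythdf2 alone of these was called lower, at -0.105 (edgeR adjusted p 0.0195). Ythdf2, which recruits the CCR4-NOT deadenylase to marked transcripts, was at 106 and 107 CPM in Veh and at 92.7 and 93.8 CPM in NRRA, and fell by 0.19 on the log2 scale (adjusted p 8.03e-05 by edgeR, SE 0.038). It lies on chromosome 4 (ENSMUSG00000040025, 132184912 to 132212303, minus strand). Near-identical stretches of the pseudogenes Gm6823 and Gm8401 cover 44.4% of its longest transcript, so its level is uncertain. These pseudogenes had at most 17 counts in a library.

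Ythdf1 was at 226 and 230 CPM in Veh and at 210 and 211 CPM in NRRA, and fell by 0.11 on the log2 scale (adjusted p 0.00151 by edgeR, SE 0.029). Both NRRA libraries lay below both Veh libraries for Ythdf1 and for Ythdf2. The fall of Ythdf1 was not past the threshold with library size only, where its log2 fold change was -0.024 (edgeR adjusted p 0.505). Ythdf3 was at 74.8 and 78.0 CPM in Veh and at 76.2 and 74.1 CPM in NRRA. Its groups overlapped, with a log2 fold change of -0.024 (edgeR adjusted p 0.668) and a 95% interval from -7.56% to 4.64%, and its sign changed with library size only. Both genes, on chromosome 2 (ENSMUSG00000038848, 180904377 to 180920949, minus strand) and chromosome 3 (ENSMUSG00000047213, 16183212 to 16217037, plus strand), shared no exonic base with another gene.

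Ythdc1, the nuclear reader, was at 117 CPM in both Veh libraries and at 122 and 120 CPM in NRRA. Its log2 fold change was 0.043 (adjusted p 0.32 by edgeR, SE 0.035), with a 95% interval from -2.06% to 8.32%, and it was called higher only with library size only, at 0.13. It lies on chromosome 5 (ENSMUSG00000035851, 86804221 to 86836659, plus strand). On the same strand, 4.62% of its exonic bases overlap Gm43055, which had 0 counts in every library. Of the 5 YTH readers, 1 thus rose, 2 fell and 2 did not pass the threshold, close to the 56.4% called among all tested genes, and the reader that rose was Ythdc2.

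Levels were compared between genes per length, as RPKM (reads per kilobase of the union of annotated exons, scaled to library size). Ythdf1 had the highest level in Veh, at 68.7 ± 0.96 RPKM (SD, n = 2), followed by Alkbh5 at 41.8 ± 0.79, Ythdf2 at 23.3 ± 0.22 and Ythdf3 at 14.2 ± 0.43 RPKM. Mettl3, Wtap, Ythdc1 and Meioc lay close together, between 9.75 and 7.52 RPKM, and the ranges of Mettl3 and Wtap overlapped. Mettl14 and Ythdc2 were the lowest, at 5.44 ± 0.079 and 4.13 ± 0.14 RPKM. In NRRA, Ythdf1 and Alkbh5 came closer to each other, at 63.5 ± 0.043 and 59.3 ± 0.20 RPKM (SD, n = 2), and Meioc moved from rank 8 to rank 5, at 13.2 ± 0.51 RPKM. Ythdc2 remained the lowest at 5.02 ± 0.086 RPKM. The order in the middle depended on the length used. With the longest annotated transcript in place of the exon union, 6 of the 10 genes kept their rank in Veh and 4 in NRRA. Meioc was then at rank 8 in both groups, so its move up the order was seen with the exon union only. Mettl3, Wtap and Ythdc1 moved above Ythdf3 in both groups, and the exon unions of these genes are much longer than any 1 of their transcripts.

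**Figure D2:**
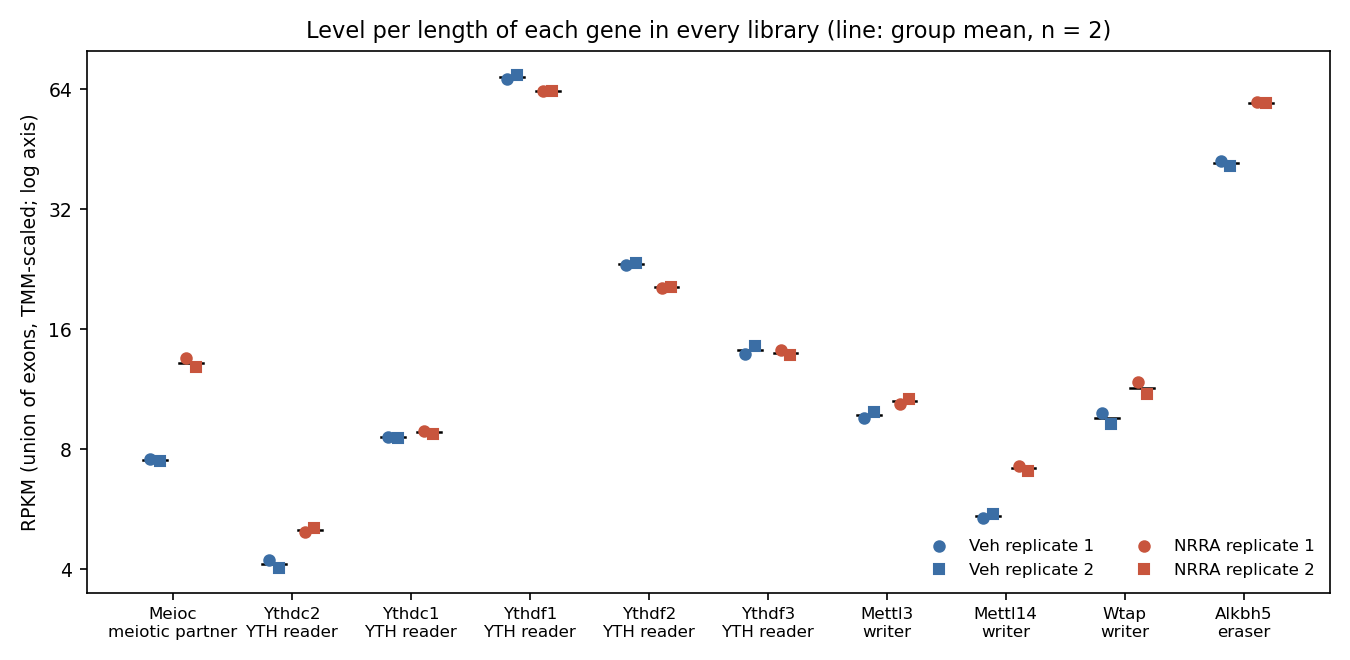
Level per length (RPKM, logarithmic axis) of the 10 genes in each Veh (blue) and NRRA (red) library, with the group mean as a line. Ythdf1 and Alkbh5 stand above the others in every library and Ythdc2 is the lowest, and Meioc and Alkbh5 show the widest gaps between the groups.

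Ratios within a library, which do not depend on how libraries are scaled, gave the balance between partners. Meioc stood at 1.79 and 1.86 times the level per length of Ythdc2 in the Veh libraries and at 2.74 and 2.53 times in the NRRA libraries. The Mettl14 to Mettl3 ratio was 0.561 and 0.555 in Veh and 0.699 and 0.658 in NRRA. For both pairs the groups did not overlap. The Wtap to Mettl3 ratio was 1.03 and 0.936 in Veh and 1.13 and 1.02 in NRRA, with overlapping groups. The remaining ratios were chosen after their values were seen. The Alkbh5 to Mettl3 ratio was 4.41 and 4.16 in Veh and 5.70 and 5.51 in NRRA. The ratio to Ythdf2 was 2.93 and 2.95 in Veh and 3.13 and 3.10 in NRRA for Ythdf1, and 0.601 and 0.619 in Veh and 0.700 and 0.674 in NRRA for Ythdf3. In each of these the NRRA libraries lay above the Veh libraries. Ratios to Mettl3 and to Ythdf2 share the uncertainty in the counts of these genes, from Tox4 and from pseudogenes. The size of a ratio depended on the length used, while the fold between libraries did not. With the longest transcript the Mettl14 to Mettl3 ratio was 0.246 and 0.243 in Veh and 0.306 and 0.289 in NRRA, and the Alkbh5 to Mettl3 ratio was 1.96 and 1.85 in Veh and 2.53 and 2.45 in NRRA. The ratios were not tested. With 2 libraries against 2, the smallest two-sided p of an exact permutation test is 0.333.

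**Figure D3:**
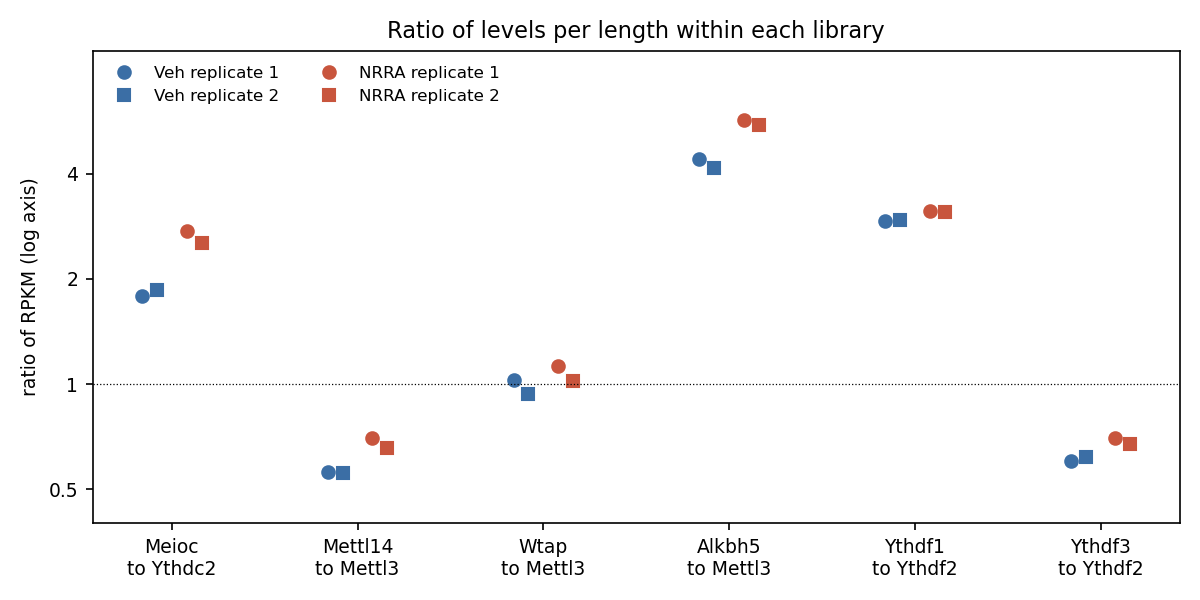
Ratio of levels per length (RPKM, logarithmic axis) of pairs of the genes in each Veh (blue) and NRRA (red) library. The NRRA points lie above the Veh points for every pair except Wtap to Mettl3, where they overlap.

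The rest of the m6A pathway was described by a list of 21 other genes, all of them tested. Of these, 6 rose, 10 fell and 5 did not pass the threshold, with a median log2 fold change of -0.0023, beside 27.9% higher and 28.4% lower among all tested genes. With library size only 8 rose and 8 fell, a setting in which 6962 genes rose and 4593 fell over the whole table. DESeq2 gave 4 and 10 in the list, beside 4529 and 4625 over the whole table. The other members of the writer complex moved both ways. Rbm15 and Zc3h13 rose by 0.18 each, Rbm15b fell by 0.20 and Virma fell by 0.15 on the log2 scale, and Cbll1 had a log2 fold change of -0.000048 (edgeR adjusted p 0.999, SE 0.045). The fall of Virma was not past the threshold with library size only. Of the 5 genes of other RNA methyltransferases and their cofactors, 2 rose and 2 fell, with Trmt112 at 0.17 and Pcif1 at 0.11 above and Mettl5 at -0.27 below. Exons on the opposite strand overlap 39.1% of the exonic bases of Trmt112 (Prdx5 and Esrra), 16.9% of Pcif1 (Zfp335), 17.6% of Cbll1 (Gm29542), 12.5% of Ccna2 (Exosc9) and 11.3% of Mat2a (Particl), so these values are uncertain as that of Mettl3 is. Mettl16, which methylates the Mat2a transcript, fell by 0.38 (adjusted p 3.29e-09 by edgeR, SE 0.039) from 121 and 118 CPM to 89.5 and 94.2 CPM.

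The largest falls in the list were those of the IGF2BP genes, which encode RNA-binding proteins reported to stabilize marked transcripts. Igf2bp1 stood at 495 and 501 CPM in Veh and at 228 and 225 CPM in NRRA, and fell by 1.14 on the log2 scale (adjusted p 1.70e-22 by edgeR, SE 0.026), a 2.20-fold fall. Igf2bp2 and Igf2bp3 fell by 0.57 and 0.56. All 3 kept their direction and call under each of the scalings tried. Of the exonic bases of Igf2bp3, 18.7% overlap Malsu1 on the opposite strand. The largest rise in the list was that of Fmr1, the gene of the fragile X protein, at 0.43 (SE 0.038). Of the 10 other readers, 6 fell and 2 rose, beside 28.4% lower and 27.9% higher among all tested genes. With library size only, 5 of them fell and 3 rose, a setting in which 60.3% of all calls were higher.

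**Figure D4:**
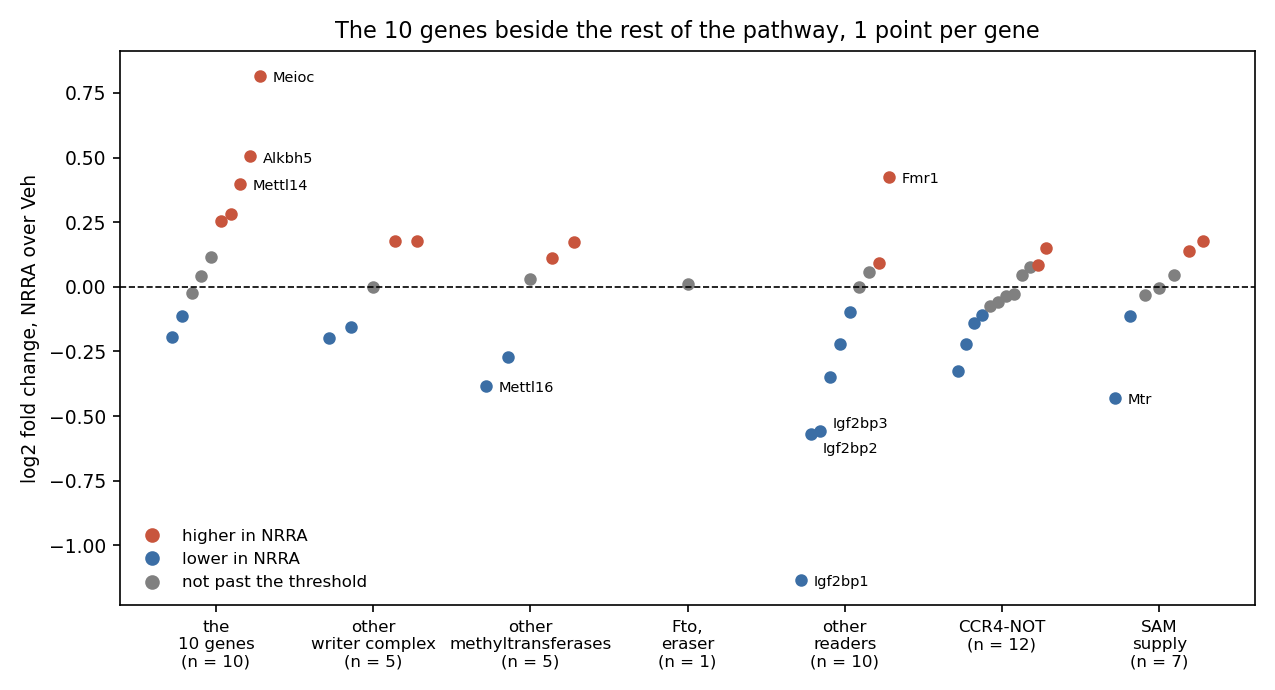
Log2 fold change of NRRA over Veh (vertical axis) of the 10 genes and of the other genes of the pathway, with 1 point per tested gene, in red where higher, in blue where lower and in grey where not past the threshold. The largest fall is that of Igf2bp1 at -1.14 and the largest rise is that of Meioc at 0.82, and the CCR4-NOT genes lie between -0.33 and 0.15.

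Genes that act before and after the mark were listed as well. The CCR4-NOT complex shortens poly(A) tails of transcripts bound by YTHDF2. Of its 12 genes, 2 rose, 4 fell and 6 did not pass the threshold, with a median of -0.047. With library size only 5 rose and 2 fell, a setting in which 60.3% of all calls were higher. DESeq2 gave 1 that rose and 2 that fell, and called 9154 of all 20232 tested genes. The values ranged from -0.33 for Cnot6l, a deadenylase, to 0.15 for Cnot4, and the scaffold Cnot1 had a log2 fold change of -0.027 (edgeR adjusted p 0.325), which was 0.063 and called higher with library size only (edgeR adjusted p 0.0187). S-adenosylmethionine (SAM) is the methyl donor of the writers and is made from methionine. Of 7 genes of its supply, 2 rose, 2 fell and 3 did not pass the threshold, with a median of -0.0063. With library size only 3 rose and 1 fell, and with DESeq2 1 rose and 1 fell. Mtr, the methionine synthase, fell by 0.43 (adjusted p 1.10e-11 by edgeR, SE 0.032), from 202 and 204 CPM to 155 and 147 CPM. Ahcyl2 had the largest rise, 0.18. Mat2a, the SAM synthetase gene, was at 223 and 227 CPM in Veh and at 226 and 222 CPM in NRRA, a log2 fold change of -0.0063 (adjusted p 0.874 by edgeR, SE 0.029), and was called higher with library size only. The calls of the main fit, 6 of 12 and 4 of 7 genes, stood beside 56.4% of all tested genes.

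The genes most like Meioc over the 4 libraries were found by the Euclidean distance between log2 CPM values, each centred on the mean of its gene, among 11325 tested genes whose mean log2 CPM was 3 or more. They were Fndc4 (distance 0.0136), Snx25 (0.0221), Ankrd44 (0.0299), Cep350 (0.0308) and Cntln (0.0326), with log2 fold changes between 0.79 and 0.82. A distance under 0.1 was found for 98 genes. For Ythdc2 the nearest were Usp47 (distance 0.00674), Fbxw7 (0.00733), Hif1an (0.00888), Smad2 (0.00947) and Bscl2 (0.0095), and 753 genes lay under 0.1. With 4 libraries in 2 groups, the measure is mostly that of the difference between the groups.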

How the data were processed

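Poly(A) RNA of 4 libraries was analysed, 2 Veh and 2 NRRA, with groups and replicate numbers from the sample titles. Columns were matched by the sample descriptions, where the Veh libraries carry other numbers than in the titles. The treatment protocol field names NRRA for all 4 samples, so the treatment characteristic and title were used. The authors deposited raw counts per gene, and no entry lacked a gene. Per the labels, the submitters' processing notes name bcl2fastq, STAR 2.6.1c, featureCounts 1.6.4 and mm10. The annotation, strand setting and treatment of reads with several matches are not given in the sources used here, which can shift genes with overlaps or pseudogenes. The study's methods name a strand-selecting Tecan kit, and the labels name both an Illumina TruSeq and a NuGEN kit.

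Genes were filtered with filterByExpr, scaled with TMM and tested with the edgeR 4.0.16 quasi-likelihood F test with robust estimation in R 4.3.3, with Benjamini-Hochberg adjustment over all genes tested. SEs were derived from F, and 95% intervals from the t distribution of the fit. CPM uses TMM-adjusted library sizes, and log2 CPM a prior count of 2. Totals per library were 28022265 to 31604769, and 3 counts correspond to 0.0921 to 0.111 CPM. Such floors cover counting error alone, since reads were not collapsed to molecules. Coordinates and lengths are from GENCODE M21 (GRCm38), which held 99.7% of the gene identifiers. Near-identical stretches (at least 95% identity over at least 100 bases) were found with BLAST 2.17.0, and promoter windows are from RefSeq. The fit was also run on simulated counts with 200 changed genes and a common dispersion, and the outcome is not given here. That setting differs from the data, where 56.4% of tested genes were called. Alternatives were other scalings (RLE, upper quartile, library size only), other filters, no robust estimation, DESeq2 1.42.0, glmTreat, a replicate block and leaving out each library. The study's methods name DESeq2.

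Named were the 10 genes, for each list (other m6A genes, CCR4-NOT, SAM supply, meiotic partners) the genes with the largest and smallest change and a set of core genes, Stra8, Gm4969, Ccna2, and the 5 genes nearest in pattern to Meioc and Ythdc2. Other genes in the text (Ddx4, Zbtb16, Rbm15b, Igf2bp2, Igf2bp3, Trmt112, Pcif1, Mettl5, Sall4, Dazl, Pdgfra, Col3a1, Fn1, Thbs1, Sox9, Amh, Wt1, Star, Cd68 and the genes that overlap or resemble a named gene) were chosen after their values were seen. The members and lists were chosen with earlier results of these data known.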

Additional observations from a re-analysis of the deposited data

How the results depend on the processing

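Of the 130 log2 fold changes of the 10 genes under alternatives, 119 kept direction and call, 4 gained a call, 5 lost it and 2 changed sign, and no tested gene was called in opposite directions. Meioc, Mettl14 and Alkbh5 were called higher in every alternative run, with ranges over 12 of them, glmTreat left aside, of 0.78 to 0.91, 0.38 to 0.49 and 0.48 to 0.59. With library size only, Ythdc1 (0.13) and Mettl3 (0.21) were called higher, Ythdf1 (-0.024) lost its call and Ythdf3 turned to 0.066, which left 1 of the 10 genes lower. Of the CCR4-NOT genes 5 then rose and 2 fell, and 1 of the SAM supply genes fell. Upper-quartile scaling gave Mettl3 a call at 0.14. With DESeq2, 1 CCR4-NOT gene rose and 2 fell, and 1 SAM supply gene rose and 1 fell, beside 9154 genes called over the whole table. Against a 1.2-fold change (glmTreat), 3217 genes were higher and 3304 lower over the whole table. Of the 10 genes 3 were then higher and 0 lower, and the calls on Ythdc2 (0.28), Ythdf1 (-0.11), Ythdf2 (-0.19) and Wtap (0.26) were lost. The other m6A genes then gave 1 higher and 5 lower, CCR4-NOT 0 and 0, and SAM supply 0 higher and 1 lower. By construction glmTreat calls fewer genes, and for the other settings the cause was not tested.

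Leaving out 1 library left an arm with 1 library, assumed to vary like the other group. The count of CCR4-NOT genes that rose then ranged from 1 to 2, and those of SAM supply genes that rose and that fell from 1 to 2 each. Ythdf3 ranged from -0.054 to 0.0058, the latter without Veh replicate 2. The CCR4-NOT count was 1 without Veh replicate 2 and without either NRRA library. Of the SAM supply genes 1 rose without replicate 1 of Veh or replicate 2 of NRRA, and 1 fell without replicate 2 of Veh or replicate 1 of NRRA. With the replicate number as a block, Mettl3 was called higher at 0.12, no other of the 10 genes changed its call, and 11608 genes were called in place of 11406. Libraries with the same number did not deviate together (Pearson r -0.0106 across genes), and the numbers are not stated to mark a shared source. With exons of the longest transcript, 6 of the 10 genes kept their rank by level in Veh and 4 in NRRA. The genes with fewer counts had the larger SEs, such as 0.057 for Ythdc2 beside 0.027 for Alkbh5, and the effect of depth on the calls was not tested. With 2 libraries a group, the spread is known only roughly.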

Other observations

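Markers of other testis cells summed to at most 37.7 CPM per list. Sox9, a Sertoli cell transcription factor, had 735 and 874 counts in Veh and 304 and 284 counts in NRRA, and fell by 1.59 on the log2 scale (adjusted p 1.325e-14 by edgeR), whereas Amh, the Sertoli cell hormone gene, had at most 3 counts in a library. Of the 5 Sertoli markers 2 were tested, and Wt1 did not pass the threshold. Of the 5 Leydig cell markers 2 were tested, and the rest were too low in counts. Star, which moves cholesterol into mitochondria, rose by 0.31 on the log2 scale (adjusted p 0.0317 by edgeR). The other tested marker did not pass the threshold, with a log2 fold change of -0.075. Of the 4 macrophage markers Cd68 fell by 0.86 (adjusted p 3.511e-06 by edgeR) and 3 did not pass the threshold. The summed level was 34.1 and 37.7 CPM in Veh and 15.4 and 15.8 CPM in NRRA for the Sertoli markers. For the Leydig markers it lay between 7.52 and 9.58 CPM and for the macrophage markers between 26.6 and 35.2 CPM. The part of these cells in the values of the m6A genes was not tested.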
